A study of Homo sapiens with 18 samples.

Results

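JTE-607, a small molecule that blocks cleavage of pre-mRNA, was compared with hyperosmotic KCl in K562 cells by the number of nascent transcripts that ran past the end of their gene. Of the 18 libraries of the series, 6 entered the comparison, chosen by their treatment labels: JTE 1h, 3 libraries of cells given 5 µM JTE-607 for 1 h, and KCl 45min, 3 libraries of cells given 110 mM KCl for 45 min. The 3 untreated CTRL libraries, collected in parallel and mapped at the same low rate, are given beside them as the background and entered no test. K562 is an erythroleukemia line from chronic myeloid leukemia in blast crisis, carried no further genetic change in any of these groups, and was sampled as 3 biological replicates a treatment. RNA bound to chromatin was depleted of polyadenylated RNA and rRNA and sequenced on the PacBio platform, and the last base of such a long read lies where RNA polymerase II stood. The doses and times of the treatments differ by design, so each difference below is one between these 2 exposures as given.

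At the end of most protein-coding genes, the cleavage and polyadenylation complex recognises the polyadenylation signal (PAS), usually AATAAA, and its endonuclease CPSF73 cuts the transcript, after which polymerase is released downstream. JTE-607 binds CPSF73 and inhibits the cut. Hyperosmotic stress acts upstream of many nuclear processes at once, and in several human cell lines it is known both to repress much of transcription and to induce transcripts that extend far downstream of genes.

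The values are counts of readthrough reads, which overlap the last exon of a gene and end more than 100 nt past its annotated PAS, on 1 representative transcript per gene. A readthrough level is given as reads per 1000000 library reads (RPM), where the library reads are those left after removal of polyadenylated reads and splicing intermediates. Library reads numbered from 313838 to 1147511 in the 6 libraries and from 258592 to 410442 in CTRL, and between 40.5% and 44.1% of raw reads were mapped in these 9 libraries. Of 14 erythroid markers in the table, 13 had a readthrough read in the 6 libraries and HBZ was at 0, with summed levels of 229 to 350 RPM in JTE 1h, 76.7 to 253 in KCl 45min and 418 to 439 in CTRL. The markers of other blood cells and other tissues in the table, 4 in all, summed to at most 2.61 RPM in any of the 6 libraries. Reads within gene bodies were not used here, so a level reflects both how much a gene was transcribed and how often it was cut, and these cannot be told apart, nor can a change in readthrough and a change in the amount of other nascent RNA.

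JTE 1h libraries held more readthrough than KCl 45min libraries. Readthrough reads made up 3.06%, 5.4% and 5.05% of library reads in JTE 1h replicates 1, 2 and 3, and 2.46%, 2.68% and 2.15% in KCl 45min. Every JTE 1h library lay above every KCl 45min library, with means of 4.51% ± 1.26 and 2.43% ± 0.268 (SD, n = 3 each), a ratio of 1.85. The difference of 2.08 percentage points had p = 0.1 in an exact permutation test (two-sided), the smallest p that 3 against 3 libraries allow, and an adjusted p of 0.15 over the 3 single values tested. The CTRL mean lay between those of the treatments, with libraries at 3.33%, 3.32% and 3.55%. All 3 KCl 45min libraries were below all 3 CTRL libraries, and JTE 1h replicates 2 and 3 were above them, whereas replicate 1 was below. JTE 1h replicate 1 also had the shortest readthrough reads of these libraries, with a median of 1588 nt against 2320 and 2243 nt in replicates 2 and 3. Short medians were not particular to it, with 1678, 2144 and 1952 nt in KCl 45min and 1685, 1743 and 2187 nt in CTRL. The part of read length and of this replicate in the spread was not tested. Without JTE 1h replicate 1 the difference was 2.80 points.

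At an equal number of library reads, readthrough reads fell on more transcripts in JTE 1h. More of the reads drawn from JTE 1h are readthrough reads, so this count is not independent of the share above. The number of transcripts at equal readthrough reads was not compared. When each library was drawn to 258592 reads, 3446, 4719 and 4759 transcripts had a readthrough read in JTE 1h, and 2925, 3199 and 3002 in KCl 45min. The groups did not overlap, and their means of 4308 ± 747 and 3042 ± 142 (SD, n = 3 each) differed by 1266 transcripts (exact permutation test, two-sided, p = 0.1, adjusted p = 0.15). CTRL had 3680, 3332 and 3852. The concentration of readthrough on a few genes was compared as well. At 8422 readthrough reads a library, the 100 transcripts with the most reads took 22.9%, 20.1% and 17.5% in JTE 1h, and 26.8%, 23.4% and 19.5% in KCl 45min. These ranges overlap, although JTE 1h was lower in each pair of same-numbered libraries, with differences of -3.92, -3.38 and -2.0 points, and the difference of -3.10 points had p = 0.3 in the exact permutation test (adjusted p = 0.3).

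**Figure D1:**
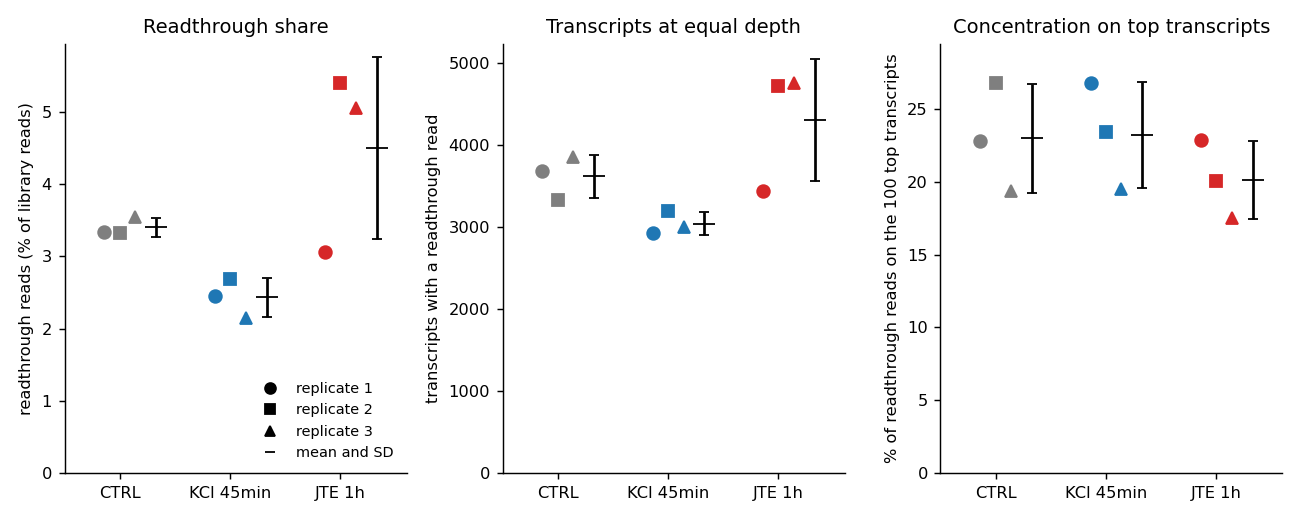
Readthrough share of library reads (left), number of transcripts with a readthrough read after drawing each library to 258592 reads (middle) and share of readthrough reads on the 100 top transcripts (right) for CTRL, KCl 45min and JTE 1h. Symbols are the 3 replicates, and the black bar is the mean with its SD. The KCl 45min libraries sit lowest in the left and middle panels, and JTE 1h replicate 1 sits below the other JTE 1h libraries.

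Transcript by transcript, the same shift ran through most of the table and a small set of genes went against it. Of 13051 transcripts, 10341 had a readthrough read in the 6 libraries, with a median of 4 reads over all transcripts, and the 999 with at least 30 reads were tested. Together these held 51.6% of the 141027 readthrough reads. By edgeR's quasi-likelihood test with library reads as library sizes and Benjamini-Hochberg adjustment, 353 transcripts (35.3% of those tested) passed at an adjusted p under 0.05. Of these, 341 (34.1%) were higher in JTE 1h, by log2 differences of 1.34 to 7.37, and 12 (1.2%) were higher in KCl 45min, by log2 differences of -1.39 to -3.51. All 3 libraries of one treatment lay above all 3 of the other for 405 transcripts (40.5%), with JTE 1h above for 377 (37.7%) and KCl 45min above for 28 (2.8%). The median log2 difference over all tested transcripts was 1.21.

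That median is a shift shared by most transcripts, and TMM scaling, which sets the typical transcript to no change, moved it to 0.08. Relative to the typical transcript, 168 passed, 106 higher in JTE 1h (10.6%) and 62 higher in KCl 45min (6.21%), and 118 of the 168 were among the 353. Reads of JTE 1h made up 70.8% of all readthrough reads, so most transcripts reached 30 reads through that group: 662 had 30 reads in JTE 1h alone and 162 in KCl 45min alone. Of the 341 higher in JTE 1h, 261 had under 10 reads in KCl 45min. The 2 replicates numbered 3 were the deepest. Without JTE 1h replicate 3, 83 of 435 transcripts passed, 78 of them higher in JTE 1h. Without JTE 1h replicate 2, 176 of 740 passed, 170 higher in JTE 1h, and without KCl 45min replicate 3, 182 of 818, 176 higher in JTE 1h. Without JTE 1h replicate 1, 476 of 873 passed, 463 higher in JTE 1h. Without KCl 45min replicate 1 or 2, 280 of 931 and 267 of 938 were higher in JTE 1h. List counts below with 1 library left out are to be read against these.

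**Figure D2:**
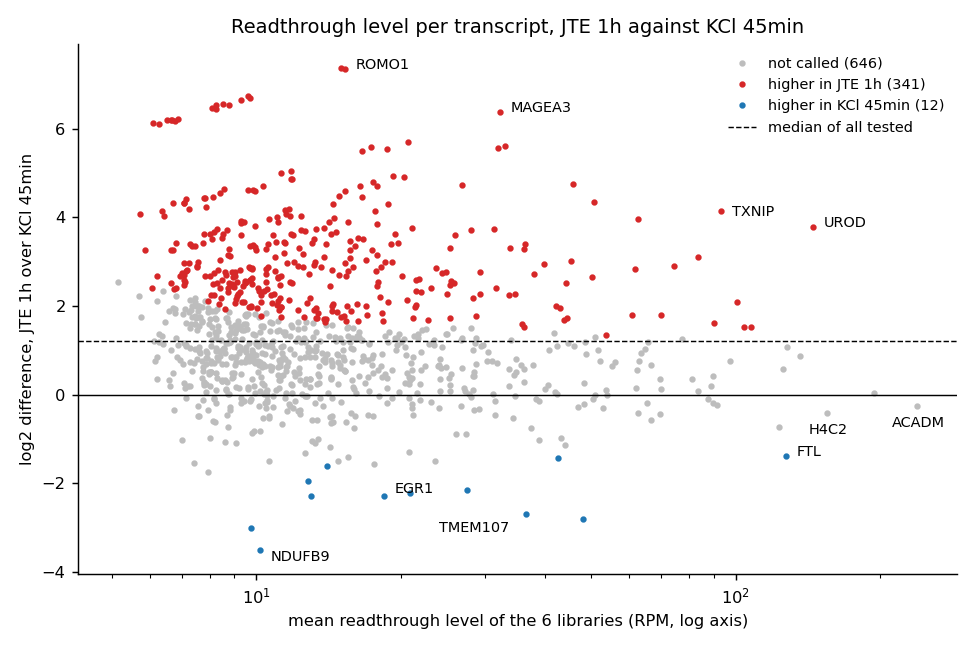
Log2 difference in readthrough level, JTE 1h over KCl 45min, against the mean level of the 6 libraries (RPM, log axis) for the 999 tested transcripts. Red points are the 341 higher in JTE 1h and blue points the 12 higher in KCl 45min by edgeR's quasi-likelihood test, the dashed line is the median of 1.21 and the solid line is no difference.

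Most transcripts higher in JTE 1h than in KCl 45min had KCl 45min levels below CTRL. For the 341, the median log2 ratio to CTRL was 0.77 for JTE 1h and -2.05 for KCl 45min, with 0.5 RPM added to each mean, against 0.54 and -0.54 over all tested transcripts. The CTRL mean lay between the treatments for 281 of the 341, above both for 46 and below both for 14. The 3 KCl 45min libraries were all below the 3 CTRL libraries for 212, against 286 of all 999 tested, and the 3 JTE 1h libraries all above them for 68, against 139 of the 999. For the 12 that were higher in KCl 45min, the median log2 ratios were 2.18 for KCl 45min and -0.40 for JTE 1h, and the KCl 45min libraries were all above the CTRL libraries for 9. CTRL entered neither the test nor the choice of these transcripts, but the JTE 1h and KCl 45min levels are those that gave the calls, so these are descriptions.

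The 12 transcripts with the smallest adjusted p among those higher in JTE 1h without overlap are MAGEA3, a cancer-testis antigen, TXNIP, an inhibitor of thioredoxin and of glucose uptake, UROD, an enzyme of heme synthesis, CCT5, a subunit of the TRiC chaperonin, TUBB, a beta tubulin, the ribosomal protein genes RPS19, RPL35 and RPL38, ROMO1, a small protein of the mitochondrial inner membrane, AUP1, a protein of lipid droplets and the endoplasmic reticulum, GAPDH, an enzyme of glycolysis, and JMJD4, a lysyl hydroxylase. Their log2 differences ran from 3.79 for UROD to 7.34 for ROMO1, and all 12 passed in each of the 17 to 19 alternatives in which they were tested. Of 34 other called transcripts followed through the alternatives, 3 passed in every one in which they were tested, namely CYC1, HNRNPF and NOP14. The 34 were selected members of the gene lists described below, together with E2F8 and NOP14, which had no read in KCl 45min. Not every called list member was among them. The 12 were chosen by their adjusted p, so their firmer calls follow partly from that choice.

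UROD, one of the 4 transcripts with the most readthrough reads, was at 122, 395 and 291 RPM in JTE 1h replicates 1 to 3, at 21.9, 28.7 and 11.4 RPM in KCl 45min, and at 169, 163 and 247 RPM in CTRL. JTE 1h replicate 1 was thus below CTRL and above every KCl 45min library. The log2 difference was 3.79 ± 0.60 (SE), adjusted p = 6.46e-08 by edgeR's quasi-likelihood test.

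TXNIP was at 60.9, 243 and 224 RPM in JTE 1h and at 2.44, 19.1 and 9.47 RPM in KCl 45min, with CTRL at 63.8, 132 and 135 RPM (log2 difference 4.15 ± 0.64, adjusted p = 5.28e-08). MAGEA3 was at 17.4, 83.6 and 89.8 RPM in JTE 1h and had 1 read in the 3 KCl 45min libraries together (log2 difference 6.37 ± 0.96, adjusted p = 3.76e-08). Both followed the same order as UROD, with KCl 45min far below CTRL in every library.

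RPS19 differed in JTE 1h replicate 1, which lay above every CTRL library. It was at 56.6, 70 and 61.9 RPM in JTE 1h, at 2.44, 0 and 0.947 RPM in KCl 45min, and at 30.5, 7.31 and 3.87 RPM in CTRL, so that the JTE 1h libraries were above CTRL and close to each other (log2 difference 5.57 ± 0.89, adjusted p = 6.46e-08). RPL38 was likewise above CTRL in all JTE 1h libraries, at 67.5, 148 and 139 RPM against 22.2, 19.5 and 19.3 RPM in CTRL and 4.87, 6.37 and 9.47 RPM in KCl 45min. JMJD4 went the other way. Its JTE 1h libraries, at 28.3, 31.1 and 43.6 RPM, overlapped CTRL at 108, 68.2 and 34.8 RPM, and KCl 45min had 1 read in all.

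The transcripts higher in KCl 45min included TMEM107, which encodes a protein at the base of cilia. It was at 73.1, 79.7 and 38.8 RPM in KCl 45min, at 6.53, 9.72 and 11.3 RPM in JTE 1h, and at 8.32, 36.5 and 3.87 RPM in CTRL (log2 difference -2.70 ± 0.65, adjusted p = 0.000341 by edgeR's quasi-likelihood test). The KCl 45min libraries lay above all others, and the JTE 1h libraries lay within the range of CTRL.

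The last exon of TMEM107 (chr17:8173237-8174272, GRCh38) holds a gene of a small RNA on the same strand, SNORD118 (chr17:8173454-8173587), the gene of the U8 snoRNA, which takes part in processing of rRNA. This was looked for after the values were seen. TPT1 and TAF1D also hold snoRNA genes in their last exons and did not pass, with log2 differences of 0.10 and 1.51. Whether the reads counted for TMEM107 start from SNORD118 cannot be read from the counts.

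EGR1, an immediate early transcription factor, was nearly absent from CTRL, with 1 read in 3 libraries. It reached 24.4, 31.9 and 36.9 RPM in KCl 45min and 0, 9.72 and 7.84 RPM in JTE 1h, without overlap (log2 difference -2.29 ± 0.70, adjusted p = 0.00534). NDUFB9, a subunit of respiratory complex I, and RPS3, a ribosomal protein of the small subunit, were at 11.4 to 28.7 and 10.4 to 25.5 RPM in KCl 45min and at 0 to 2.18 and 0 to 3.89 RPM in JTE 1h. These calls, with TMEM107, passed in every alternative in which they were tested, which for NDUFB9 and RPS3 were only 13 and 12, with 2 and 1 of the 6 libraries left out in turn. The NDUFB9 transcript counted is annotated as a target of nonsense-mediated decay, spans 41509 bases and ends within MTSS1 on the opposite strand. The RPS3 transcript counted spans 22750 bases. Whether these are the main ends of the 2 genes was not examined.

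A further 7 passed less firmly. NABP1, a binding protein of single-stranded DNA, was at 14.6, 44.6 and 43.6 RPM in KCl 45min and 8.70, 7.78 and 6.10 RPM in JTE 1h (log2 difference -2.21, adjusted p = 0.00679, and 0.089 without JTE 1h replicate 3). PICALM, which assembles clathrin at membranes, was at 9.74, 41.4 and 15.2 RPM in KCl 45min and 4.35, 1.94 and 5.23 RPM in JTE 1h (log2 difference -2.28, adjusted p = 0.00867, and 0.056 without JTE 1h replicate 2). FTL, the light chain of the iron store ferritin, was at 236, 226 and 92.8 RPM in KCl 45min and 58.8, 73.9 and 75.8 RPM in JTE 1h (log2 difference -1.39, adjusted p = 0.0285). It failed without KCl 45min replicate 1 or 2 or JTE 1h replicate 2 or 3, with adjusted p = 0.12, 0.14, 0.063 and 0.14. In CTRL, FTL was at 250, 78 and 143 RPM, which overlaps KCl 45min and lies above every JTE 1h library, and its processed pseudogenes leave the placement of its reads uncertain.

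The remaining 4 were PYDC2 and ENSG00000283228, whose log2 differences were -1.95 and -1.62 (adjusted p = 0.0287 and 0.0412), and 2 transcripts without a match in the annotation. PYDC2 failed without JTE 1h replicate 2 or 3, with adjusted p = 0.059 and 0.16. ENSG00000283228 failed without KCl 45min replicate 2 or JTE 1h replicate 2 or 3, with 0.096, 0.13 and 0.11. ENST00000331925 had a log2 difference of -2.14 (adjusted p = 0.00534, and 0.059 without KCl 45min replicate 3). ENST00000331789 had one of -1.44 (adjusted p = 0.0401, and 0.053 to 0.14 without any 1 of the 6 libraries).

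**Figure D3:**
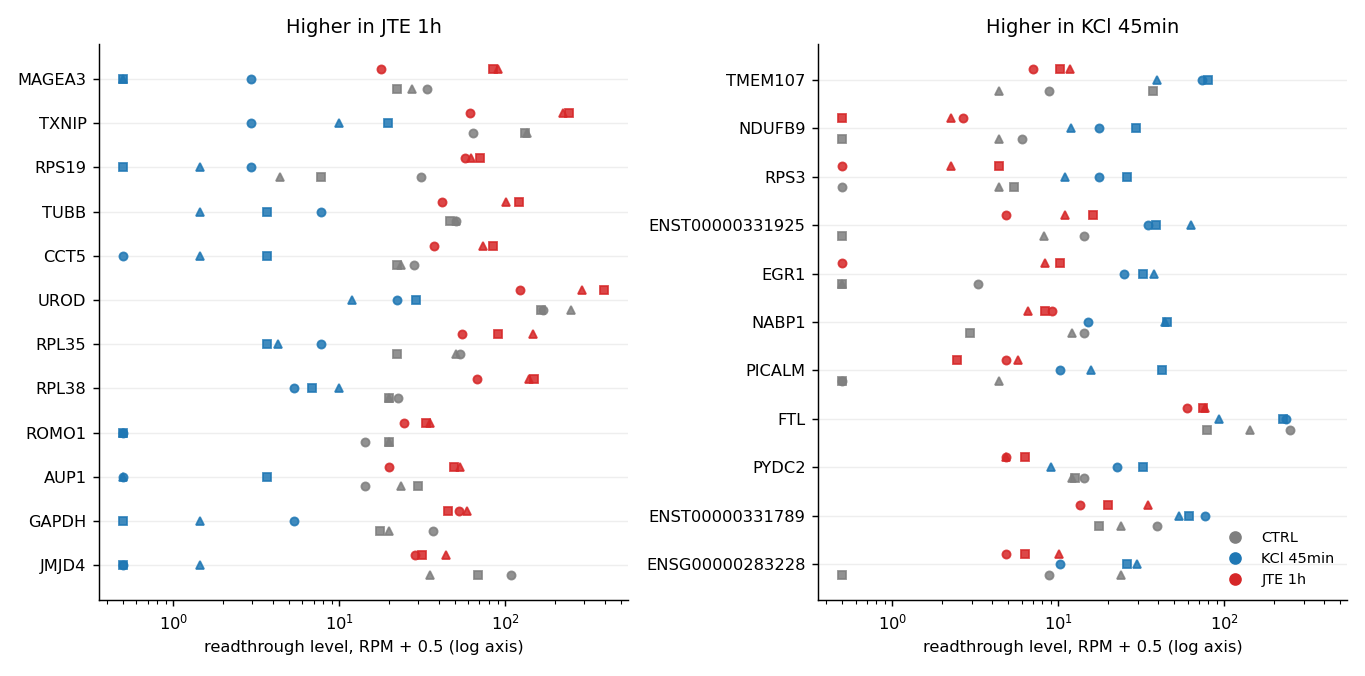
Readthrough level in each library (RPM + 0.5, log axis) of the 12 transcripts with the smallest adjusted p higher in JTE 1h (left) and of those higher in KCl 45min that are named here (right). Colors are the groups and symbols the replicates, circles for 1, squares for 2 and triangles for 3. On the left CTRL mostly sits near or below JTE 1h and above KCl 45min, and on the right CTRL mostly sits near JTE 1h.

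To show where cleavage would take place, the last 30 bases of the representative transcripts are given for some of these genes, read from GENCODE 44 on GRCh38, 5′ to 3′ on the strand of the transcript, with AATAAA in capitals. The first set are transcripts higher in JTE 1h, TXNIP (chr1:145992435-145992464, minus strand), CCT5 (chr5:10266360-10266389, plus strand), GAPDH (chr12:6538345-6538374, plus strand) and RPL38 (chr17:74210626-74210655, plus strand), and RPL38 is shown because it lacks AATAAA. Variants of the signal were not marked.
TXNIP: aaAATAAAgtttttttaatggaaaaaaaaa
CCT5: atttatttgtAATAAAcctcttccacgtga
GAPDH: atcAATAAAgtaccctgtgctcaaccagtt
RPL38: tggcatcataaaatctgtcttcatacccga

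The second set are transcripts higher in KCl 45min, EGR1 (chr5:138469274-138469303, plus strand), FTL (chr19:48966850-48966879, plus strand), PICALM (chr11:85957684-85957713, minus strand), and TMEM107 (chr17:8173237-8173266, minus strand), and TMEM107 is shown because it lacks AATAAA.
EGR1: cttccaaaaaattaaaacgaaAATAAAgta
FTL: gaccaaatggaAATAAAgctttttgatgca
PICALM: attttcaAATAAAatgcagcttccacaaaa
TMEM107: tctggaatttaggcagtgaaataatacaaa

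AATAAA was searched within the last 50 bases, on the strand of the transcript, among transcripts of each class. AATAAA was present in 67.9% of the 333 annotated transcripts higher in JTE 1h, in 5 of the 10 higher in KCl 45min, in 51.8% of the 624 not called and in 60.4% of all 12704 annotated transcripts. Of the tested transcripts with it, 40.8% were higher in JTE 1h and the median log2 difference was 1.5, and of those without it 25.9% were, with a median of 1.02. Another gene on the same strand within the 2 kb past the transcript end, whose own reads could enter the count, was annotated for 17.1% of the transcripts higher in JTE 1h and 30.9% of those not called. It was annotated for 26.1% of the tested and 19.2% of all annotated transcripts. These shares are descriptions, since the classes were compared on the values that gave the calls, and a match to AATAAA does not show that the site is used.

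The levels of the treatments also differed by gene length. Over all annotated transcripts, split into quartiles by their length in the genome, KCl 45min lay farthest below CTRL for the shortest genes and did not lie below it for the longest. In the first quartile, with genes up to 8.69 kb, summed levels were 12350, 20617 and 18663 RPM in JTE 1h and 8603, 8351 and 6227 RPM in KCl 45min, without overlap, and 14393, 15062 and 12904 RPM in CTRL. The ratio of the means of JTE 1h and KCl 45min was 2.23, and KCl 45min was at 0.547 of CTRL.

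In the fourth quartile, with genes of 54.2 kb and more, levels were 4446, 7837 and 7396 RPM in JTE 1h and 4853, 6134 and 5104 RPM in KCl 45min, with overlap because JTE 1h replicate 1 was below all KCl 45min libraries. CTRL was at 4147, 4376 and 5410 RPM there, overlapping KCl 45min, whose mean was 1.15 times that of CTRL. The middle quartiles lay between, with ratios of JTE 1h to KCl 45min of 2.20 and 1.69. The ratio of KCl 45min to CTRL thus climbed from 0.547 through 0.637 and 0.829 to 1.15 with length, whereas that of JTE 1h to CTRL was 1.22, 1.40, 1.40 and 1.41.

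The calls followed the same order. Of the tested transcripts, 45.5%, 35.2%, 25.4% and 9.92% were higher in JTE 1h from the first to the fourth quartile, and the median log2 differences were 1.54, 1.36, 1.05 and 0.46, which under TMM scaling were 0.42, 0.22, -0.04 and -0.67. Without the histone genes the ratio in the first quartile was 2.40. In each quartile the median was higher with AATAAA than without it, at 1.82 against 1.22 in the first and 0.55 against 0.36 in the fourth. The share of readthrough reads on genes shorter than the median, 22.6 kb, was 65.6%, 63.9% and 63.7% in JTE 1h, 58%, 52.8% and 51.5% in KCl 45min and 68.7%, 68% and 62.5% in CTRL. The split was chosen after the values were seen and was not tested, and level, exon number and gene class vary with length too.

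**Figure D4:**
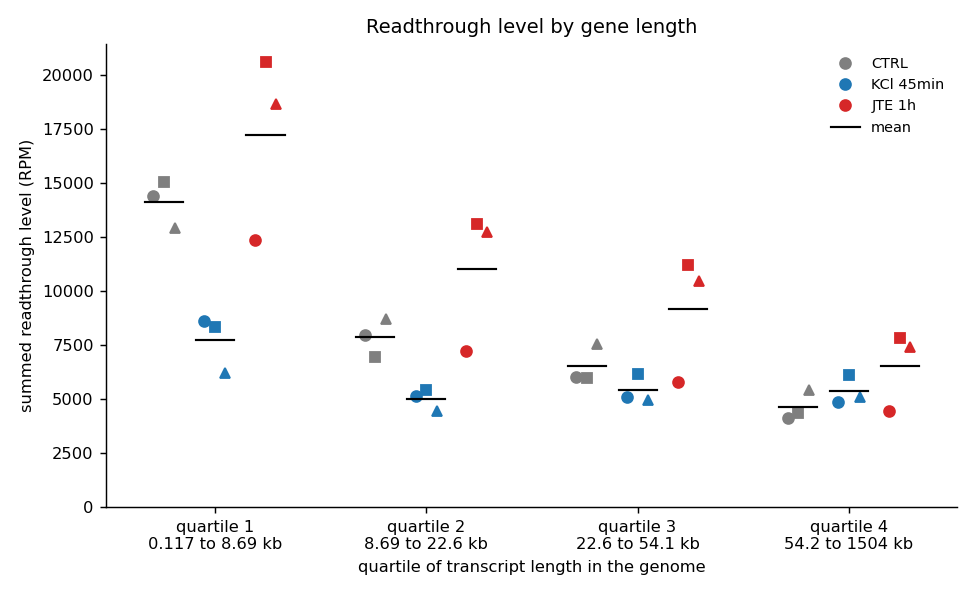
Summed readthrough level (RPM) in each library by quartile of transcript length in the genome, for CTRL, KCl 45min and JTE 1h. Symbols are the replicates, circles for 1, squares for 2 and triangles for 3, and black lines are means. KCl 45min lies below both other groups in the first and second quartiles and overlaps CTRL in the fourth.

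Most tested members of a hyperosmotic response list were higher in JTE 1h than in KCl 45min, where most had means below CTRL. Of 28 members of this list of osmolyte transport and hyperosmotic response genes in the table, 7 were tested. Of these, 6 were higher in JTE 1h, against 34.1% of all tested transcripts, with a median log2 difference of 3.41. Under TMM scaling 3 of the 7 were higher in JTE 1h, against 10.6%, with a median of 2.25. The called members met the minimum of 30 reads through JTE 1h, so low KCl 45min counts follow partly from that filter. BHLHE40 had 1, 0 and 3 reads in KCl 45min, and KLF10 had 0, 0 and 1. The median log2 ratio of the 7 to CTRL was 0.67 for JTE 1h and -3.04 for KCl 45min, against 0.54 and -0.54 over all tested transcripts. Without JTE 1h replicate 3, 1 of 2 tested was higher in JTE 1h, and without JTE 1h replicate 2, 4 of 5, against 78 of 435 and 170 of 740 of all tested transcripts. Besides TXNIP the called members were DDIT4, an inhibitor of mTORC1 signaling, BHLHE40, GADD45A, YOD1 and KLF10, which are stress-responsive genes other than transporters, and GADD45A had an adjusted p of 0.081 under TMM scaling. BHLHE40, a transcriptional repressor, was at 15.2, 27.2 and 30.5 RPM in JTE 1h and 2.44, 0 and 2.84 RPM in KCl 45min (log2 difference 3.41, adjusted p = 0.000264), with CTRL at 13.9, 17.1 and 23.2 RPM.

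DDIT4 varied widely within JTE 1h. It was at 0, 19.4 and 88 RPM in JTE 1h and at 7.31, 0 and 1.89 RPM in KCl 45min, with overlap (log2 difference 3.62, adjusted p = 0.000108, and 0.1 with TMM scaling). CTRL, at 5.54, 2.44 and 11.6 RPM, overlapped KCl 45min. YOD1, with a log2 difference of 2.59 (adjusted p = 0.0156), failed without KCl 45min replicate 2 or 3, with adjusted p = 0.067 and 0.16. The exception was the amino acid and osmolyte transporter SLC38A2, which did not pass. It was at 31.7, 41.4 and 28.4 RPM in KCl 45min and at 0, 44.7 and 42.7 RPM in JTE 1h, and every KCl 45min library was above CTRL at 2.77, 7.31 and 7.73 RPM.

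Among 10 tested immediate early genes, which respond to signals without new protein synthesis, both directions were found. ID3, an inhibitor of basic helix-loop-helix factors, MYC, a growth-promoting transcription factor, and KLF6, a zinc finger factor, were higher in JTE 1h, and EGR1 was higher in KCl 45min. ID3 was at 0, 35 and 54.9 RPM in JTE 1h and at 0 in all KCl 45min libraries, so that JTE 1h replicate 1 was no higher than KCl 45min (log2 difference 7.37, adjusted p = 3.21e-07, and 0.23 with DESeq2). MYC was at 50.1, 17.5 and 13.1 RPM in JTE 1h, had 3 reads in all in KCl 45min, and was at 63.8, 53.6 and 38.7 RPM in CTRL (log2 difference 3.67, adjusted p = 0.000206, and 0.086 with TMM scaling). KLF6 (log2 difference 2.51, adjusted p = 0.0178) failed without KCl 45min replicate 3 or JTE 1h replicate 2, with adjusted p = 0.24 and 0.061. MCL1, a survival factor of the BCL2 family, did not pass, with a log2 difference of -0.46, and passed in favor of KCl 45min under TMM scaling with adjusted p = 0.04. The 3 of 10 higher in JTE 1h compare with 34.1% of all tested transcripts, and were 1 of 5 without JTE 1h replicate 3, against 78 of 435. The median of the list was 0.55, below the 1.21 of all tested transcripts. Under TMM scaling it was -0.59, with 1 of 10 members higher in JTE 1h and 4 in KCl 45min, against 10.6% and 6.21% of all tested transcripts.

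Ribosomal protein genes, which encode the ribosome's own proteins, were well covered. Of 56 tested ribosomal protein genes, 32 were higher in JTE 1h and 1, RPS3, in KCl 45min, against 34.1% and 1.2% of all tested transcripts, with a median log2 difference of 1.89. Under TMM scaling 12 and 4 were, against 10.6% and 6.21%, with a median of 0.81. The number higher in JTE 1h was 14 of 37 without JTE 1h replicate 3, against 78 of 435 of all tested transcripts. It was 19 of 46 and 19 of 52 without JTE 1h replicate 2 or KCl 45min replicate 3, against 170 of 740 and 176 of 818. RPS12, with the most reads of the list, did not pass, at 47.9, 119 and 83.7 RPM in JTE 1h and 80.4, 131 and 86.2 RPM in KCl 45min, and passed in favor of KCl 45min under TMM scaling with adjusted p = 0.034. Many of these genes have processed pseudogenes of near-identical sequence, so reads may have been placed or lost unequally among them.

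Of 20 tested nuclear genes of the respiratory chain, 12 were higher in JTE 1h and 1, NDUFB9, in KCl 45min, against 34.1% and 1.2% of all tested transcripts, with a median log2 difference of 2.91. Under TMM scaling 7 were higher in JTE 1h and 1 in KCl 45min, against 10.6% and 6.21%, with a median of 1.73. Without JTE 1h replicate 3, 1 of 2 tested was higher in JTE 1h, against 78 of 435 of all tested transcripts. Without JTE 1h replicate 2 or KCl 45min replicate 3, 7 of 13 and 7 of 16 were, against 170 of 740 and 176 of 818. CYC1, the cytochrome of complex III, was at 8.70, 27.2 and 34 RPM in JTE 1h and had 1 read in KCl 45min, with CTRL at 49.9, 41.4 and 38.7 RPM (log2 difference 5.05, adjusted p = 1.45e-05). The ATP synthase subunits ATP5F1B, ATP5MC3 and ATP5F1E had log2 differences of 3.34, 3.68 and 2.67 (ATP5F1E with an adjusted p of 0.15 under TMM scaling), and the 2 kb window past the end of ATP5F1B overlaps BAZ2A on the same strand. ATP5F1B failed without KCl 45min replicate 3 and ATP5MC3 without JTE 1h replicate 2, with adjusted p = 0.053 and 0.097. The mitochondrial genome is not transcribed by RNA polymerase II. Of its genes, none of 5 tested passed by edgeR's quasi-likelihood test or by DESeq2, none had an unadjusted p under 0.05, and the median was -0.20. By edgeR 35.3% of all tested transcripts passed, and 5 genes are few to set against that share. MT-ND5 was at 28.3, 31.1 and 24.4 RPM in JTE 1h and 36.5, 51 and 34.1 RPM in KCl 45min, and MT-ND6 had a log2 difference of -0.41. MT-ND5 passed in favor of KCl 45min under TMM scaling, with adjusted p = 0.024.

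Histone genes, whose replication-dependent members end in a stem-loop and are cut by a separate complex that also uses CPSF73, had few calls. The list was made by symbol, and its members were not split by the type of their ends. Of 42 tested, 6 were higher in JTE 1h, where the background is 34.1%, and the median log2 difference was 0.66. Under TMM scaling the median turned to -0.35, with none higher in JTE 1h and 7 higher in KCl 45min, against 10.6% and 6.21% of all tested transcripts. The count higher in JTE 1h was 13 of 41 without JTE 1h replicate 1, against 463 of 873 of all tested transcripts. It was 0 to 3 without any other library, being 0 of 40 without JTE 1h replicate 2, against 170 of 740. H1-2, a linker histone, was at 26.1, 171 and 57.5 RPM in JTE 1h and 9.74, 31.9 and 4.74 RPM in KCl 45min, with overlap (log2 difference 2.65, adjusted p = 0.000317, and 0.071 without JTE 1h replicate 2). The core histone genes H2BC12, H4C5, H2BC17, H2BC21 and H2AC6 had log2 differences of 1.53 to 1.75 with adjusted p from 0.013 to 0.04, and each failed without JTE 1h replicate 2, with adjusted p of 0.12, 0.26, 0.33, 0.49 and 0.33 in that order, and without KCl 45min replicate 3, with 0.087, 0.073, 0.19, 0.13 and 0.13. With the replicate block H2BC21 had an adjusted p of 0.0502 and no longer passed. The counted ends of H2BC21 and H2AC6 carry AATAAA within their last 30 bases, and that of H2AC6 belongs to a transcript of 2 exons. H4C2, among the 4 transcripts with the most readthrough reads of all, did not pass, at 155, 167 and 77.6 RPM in JTE 1h, 188, 245 and 97.6 RPM in KCl 45min and 180, 239 and 77.3 RPM in CTRL. Copies of a core histone gene are alike in sequence, so the split of reads among them is uncertain.

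Of 10 tested chaperone genes, 4 were higher in JTE 1h, near the 34.1% of all tested transcripts and between 1 and 5 with 1 library left out, 1 of 7 without JTE 1h replicate 3 and 2 without JTE 1h replicate 2 or KCl 45min replicate 1 or 3, with a median log2 difference of 1.21 that equals that of all tested transcripts. These were the chaperonin subunits CCT5, TCP1 and CCT6A and HSPA5, the chaperone of the endoplasmic reticulum. CCT5 was at 37.0, 83.6 and 73.2 RPM in JTE 1h and 0, 3.19 and 0.947 RPM in KCl 45min (log2 difference 5.60, adjusted p = 6.46e-08). TCP1 had a log2 difference of 3.20 (adjusted p = 0.000765, and 0.064 with TMM scaling). CCT6A, at 4.03, failed without KCl 45min replicate 3 (adjusted p = 0.16), and HSPA5, at 2.67, failed without any 1 of the KCl 45min libraries (adjusted p = 0.066, 0.056 and 0.28 for replicates 1 to 3). HSPA8, a constitutive HSP70 with the most reads of the list, went the other way without passing, at 41.3, 72 and 46.2 RPM in JTE 1h and 105, 79.7 and 55.9 RPM in KCl 45min (log2 difference -0.58), and passed in favor of KCl 45min under TMM scaling with adjusted p = 0.016.

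Of 4 tested genes of globins and heme synthesis, 3 were higher in JTE 1h, against 34.1% of all tested transcripts, with a median log2 difference of 2.09. Without KCl 45min replicate 3, 1 of 4 was, against 176 of 818 of all tested transcripts. Under TMM scaling 1 of 4 was higher in JTE 1h, against 10.6%, with a median of 1.06. Beside UROD, the 3 included the embryonic globin HBE1, at 43.5, 64.2 and 61.9 RPM in JTE 1h and 19.5, 12.7 and 5.68 RPM in KCl 45min (log2 difference 2.26, adjusted p = 0.00285, 0.0896 with TMM scaling and 0.062 without KCl 45min replicate 3). The 2 kb window past the end of HBE1 overlaps HBG2 on the same strand. HBG1, a fetal globin, did not pass. It was at 237, 183 and 107 RPM in JTE 1h and 188, 66.9 and 36.0 RPM in KCl 45min, with overlap through KCl 45min replicate 1, without which it passed with adjusted p = 0.023, as it did with the replicate block (log2 difference 1.09, adjusted p = 0.018).

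Genes of the machinery that ends transcripts had few reads. Of 29 cleavage and polyadenylation factors in the table, 5 were tested and 3 were higher in JTE 1h, against 34.1% of all tested transcripts, with a median log2 difference of 2.31. Without JTE 1h replicate 2, 1 of 2 tested passed, and without JTE 1h replicate 3 the 1 tested did not. These were PCF11, a termination factor, at 0, 29.2 and 25.3 RPM in JTE 1h and 0, 3.19 and 0 RPM in KCl 45min (log2 difference 4.61, adjusted p = 0.000187, and 0.18 with DESeq2), CPSF7, a subunit of cleavage factor I (log2 difference 3.73, adjusted p = 0.00123), and CPSF4, a subunit of the complex that binds the signal (log2 difference 2.31, adjusted p = 0.0238). CPSF4 failed without KCl 45min replicate 2 or 3, with adjusted p = 0.056 and 0.21. PPP1R10, a regulatory subunit of protein phosphatase 1, did not pass, with a log2 difference of -0.26. None of the 3 passed under TMM scaling. Of 2 tested subunits of Integrator, which cuts other nascent RNAs, none passed by edgeR's quasi-likelihood test or by DESeq2, where 35.3% of all tested transcripts passed by edgeR. Of the 2, 1 had an unadjusted p under 0.05 and passed without JTE 1h replicate 1.

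Of 26 tested SR and hnRNP genes, which regulate splicing, 8 were higher in JTE 1h, near the background share of 34.1%, with a median log2 difference of 1.22. The count was 16 of 26 without JTE 1h replicate 1, against 463 of 873 of all tested transcripts. It was 2 to 5 without any 1 of the other libraries, for which the background counts are given above. It was 2 of 26 under TMM scaling, against 10.6% of all tested transcripts. HNRNPF was the one with the most reads, at 37.0, 216 and 137 RPM in JTE 1h and 7.31, 38.2 and 11.4 RPM in KCl 45min, with overlap (log2 difference 2.89, adjusted p = 4.26e-05). Of 23 tested ZNF genes, 4 were higher in JTE 1h, against 34.1% of all tested transcripts, and 0 of 10 were without JTE 1h replicate 3, against 78 of 435. These were ZNF24, ZNF22, ZNF740 and ZNF274, with log2 differences of 4.99, 4.62, 4.42 and 1.74 (ZNF740 with an adjusted p of 0.058 under TMM scaling), and the median of the list was 0.78, or -0.39 under TMM scaling. ZNF274 failed without any 1 of the 5 libraries other than JTE 1h replicate 1, with adjusted p from 0.054 to 0.25. ZNF460 did not pass, with a log2 difference of -0.45, and passed in favor of KCl 45min under TMM scaling with adjusted p = 0.024. Of 2 tested genes of p53 targets and growth arrest, none passed by edgeR's quasi-likelihood test or by DESeq2, and none had an unadjusted p under 0.05. By edgeR 35.3% of all tested transcripts passed.

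**Figure D5:**
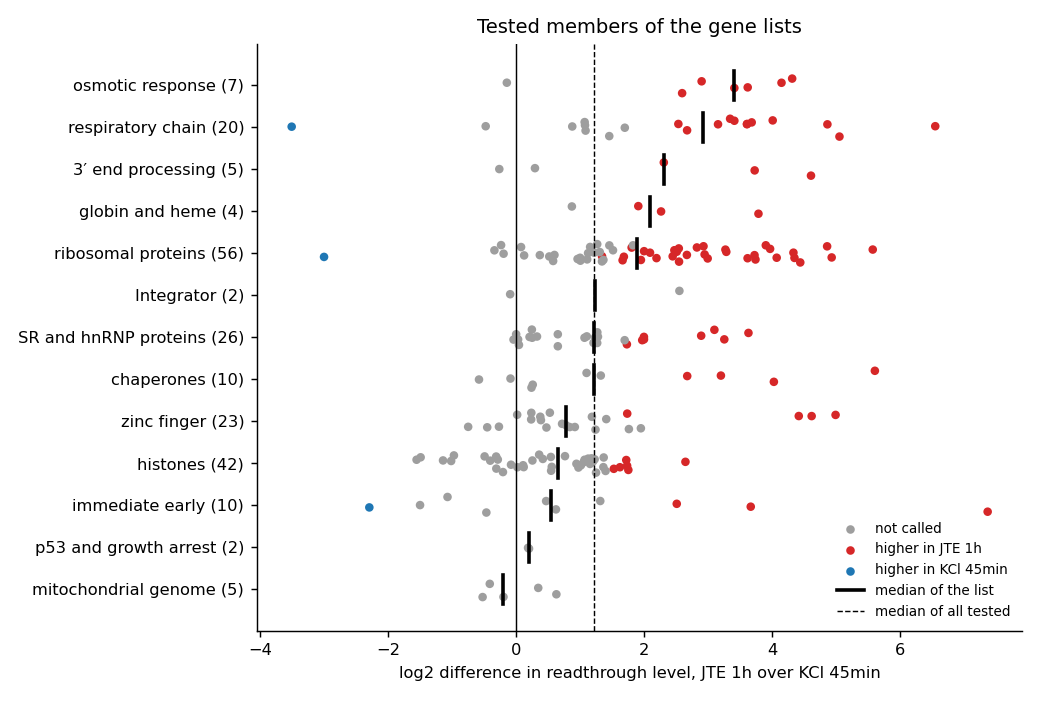
Log2 difference in readthrough level, JTE 1h over KCl 45min, of the tested members of each gene list, with the number tested in parentheses. Points are transcripts colored by their call, thick lines are list medians and the dashed line is the median of 1.21 over all tested transcripts. The osmotic response and respiratory chain lists lie farthest to the right and the mitochondrial genome farthest to the left.

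Of the transcripts with the most readthrough reads, those other than UROD did not pass. ACADM, an enzyme of fatty acid oxidation, was at 200, 313 and 143 RPM in JTE 1h, 317, 331 and 134 RPM in KCl 45min and 177, 353 and 213 RPM in CTRL. Its counted transcript ends within RABGGTB on the same strand, with snoRNA genes in the 2 kb window past that end. ENSG00000251184, within NUP188 on the same strand, was at 259, 163 and 166 RPM in JTE 1h, 236, 210 and 131 RPM in KCl 45min and 288, 258 and 286 RPM in CTRL. Their log2 differences were -0.25 and 0.03, within the spread of the libraries, and reads of the overlapping genes may enter both counts.

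At the other end of the scale, 2658 transcripts (20.4% of the table) had no readthrough read in any KCl 45min library and at least 1 in JTE 1h, and 1076 (8.24%) had none in JTE 1h and at least 1 in KCl 45min. A read in each of the 3 libraries of the other group was found for 366 and 41 of these. Deeper libraries in JTE 1h raise the first number, and counts of 1 read carry little weight.

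The transcripts at 0 in KCl 45min with the most reads in JTE 1h were ID3, ROMO1, E2F8, a repressor of the E2F family, and NOP14, a factor of ribosome biogenesis. With reads pooled over libraries and a floor of 3 reads in KCl 45min, they were 22.7-fold, 19-fold, 14-fold and 12.3-fold higher in JTE 1h. The transcripts were picked on these counts, so the folds are descriptions. ID3 had 0, 18 and 63 reads in JTE 1h replicates 1 to 3, and failed with DESeq2. ROMO1 had 11, 17 and 40 reads in JTE 1h replicates 1 to 3 and 5, 8 and 5 in CTRL. E2F8 had 0, 13 and 37 reads in JTE 1h and 2, 3 and 2 in CTRL, and failed with DESeq2.

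In the other direction, TAF15, which encodes an RNA-binding protein, FGF18, a growth factor, and HSPA1A, the stress-inducible HSP70, had no read in JTE 1h and 13, 11 and 10 reads in KCl 45min. Pooled in the same way against 3 reads in JTE 1h, they were 5.16-fold, 4.37-fold and 3.97-fold higher in KCl 45min, again as descriptions. KCl 45min replicate 1 held none of the TAF15 and FGF18 reads, which came as 5 and 8 reads for TAF15 and 3 and 8 reads for FGF18 in replicates 2 and 3. HSPA1A had 5, 0 and 5 reads in KCl 45min, its copy HSPA1B is nearly identical, and it had 1, 1 and 0 reads in CTRL. All 3 had too few reads for a test.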

How the data were processed

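Per the labels and the study's methods, the authors removed adapters with cutadapt 3.4, mapped PacBio reads with minimap2 2.22 to GRCh38, removed duplicates with UMICollapse 1.0.0, and removed polyadenylated reads and reads mapped to several places. The deposited counts are whole numbers of readthrough reads per transcript, without normalization or pooling. Library reads were taken from the study's supplementary mapping statistics. The table's column for every library was mapped to its label, and 12704 of 13051 transcripts were matched by identifier to GENCODE 44, which gave names, positions and 3′ ends, while 347 were not matched.

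The test of JTE 1h against KCl 45min was edgeR's quasi-likelihood test (edgeR 4.0.16, R 4.3.3), without covariates, on transcripts with at least 30 reads over the 6 libraries, and called at an adjusted p under 0.05. Values per library were compared by exact permutation. Draws to equal depth were repeated 100 times. On simulated counts of 999 transcripts modelled on this comparison, with 200 changed by a log2 difference of 2, edgeR called 103 (51.5%) and 3 of 799 unchanged, and DESeq2 1.42.0 called 74 (37.0%) and 0 unchanged, so many changes of that size are missed at this depth. Other values came from Python 3.11.15 (scipy 1.17.1, numpy 2.4.6, pandas 2.3.3), and plots from matplotlib 3.10.9.

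Replicate numbers come from the labels. Deviations from the group means of same-numbered libraries correlated across transcripts with r = 0.27, 0.23 and 0.13, and those of libraries with unlike numbers with r from -0.25 to 0.047. Deviations within a group sum to 0, which lowers the latter, so the numbers may pair the samples but this is not settled. The main test and the permutation tests did not use a pairing, and a replicate block was an alternative. The other alternatives were DESeq2, other scalings and library totals, other minimum counts, CTRL in the fit, read length as a covariate, and each library left out in turn. Named were the 12 transcripts with the smallest adjusted p in each direction among called, non-overlapping ones, list members with the most reads, all called members of lists with at most 6, the 4 transcripts with the most reads, and those at 0 in 1 group with the most reads in the other, of which unmatched identifiers beyond 2 and list members that did not pass and lay between 0 and the median are not all named. Some transcripts and sequences that the rule names are not reported here. The members, the 13 lists, among them the other cell types' markers, and the tests were chosen with earlier results of these data known.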

Additional observations from a re-analysis of the deposited data

How the results depend on the processing

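The number of transcripts called, 353, depended most on scaling and depth. It was 168 with TMM scaling (106 higher in JTE 1h and 62 in KCl 45min), 184 with readthrough reads as library size (141 and 43), 69 with DESeq2 and its own size factors (45 and 24) and 220 with DESeq2 and library totals (210 and 10). A minimum of 10 reads gave 640 calls among 3685 transcripts, and one of 100 reads gave 63 among 163. Leaving out 1 library gave 83 to 476. The replicate block, which pairs libraries by number, gave 403 calls (386 and 17) and, among the named transcripts, changed the call of H2BC21 and HBG1 alone. With TMM scaling and without JTE 1h replicate 1, chosen after seeing the data, 247 were called (166 and 81), and without replicate 1 of either group 451. The differences per library kept their direction in all alternatives run, from 1.17 to 2.80 points for the readthrough share, from 1000 to 1697 for transcripts at equal depth and from -4.97 to -1.04 points for the top transcripts. As pairs, the 3 differences between same-numbered replicates had 1 sign for each value, at 0.606, 2.72 and 2.90 points for the share and 522, 1520 and 1757 transcripts at equal depth, for which 3 pairs allow no p under 0.25.

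The named transcripts that turned sign were 6 that had not passed. ENSG00000251184 went from 0.03 to -0.64 with DESeq2's own size factors, -0.83 with TMM scaling, -0.69 with readthrough reads as library size, -0.0049 with mapped reads, -1.34 with TMM scaling and without JTE 1h replicate 1 (adjusted p = 0.0097), -0.029 without replicate 1 of either group, and -0.21 to 0.21 with 1 library left out. HBG1 was at -0.50 with TMM scaling and without JTE 1h replicate 1. SLC38A2 was at 0.38 without replicate 1 of either group. With 1 library left out, SLC38A2 ran from -0.55 to 0.40, RPS12 from -0.56 to 0.035, PPP1R10 from -0.50 to 0.031 and MT-ND6 from -0.68 to 0.014. The cause of these changes was not tested. Depth limits the comparison: the 999 tested transcripts are 7.65% of the table.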
